A study of Mus musculus with 4 samples.

Results

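The comparison was between classically activated macrophages (CAM) and the same kind of cell left unactivated, each measured by mRNA sequencing in 1 library. It was defined by the columns of the 2 libraries, and its members were all genes with a mouse gene symbol that reached at least 1 CPM (counts-per-million, from estimated counts) in either library: 13394 of the 32297 symbols in a table of 32617 genes. Both libraries came from blood monocytes of C57BL/6J mice aged 10 to 16 weeks. Blood of 60 mice, 1 ml from each, was pooled for the experiments. Cells selected for CD11b were grown for 6 or 7 days in medium with serum and 30 ng/ml M-CSF. M-CSF is the growth factor that turns monocytes into macrophages and keeps them alive, and the controls carried it too. The M-CSF library received nothing more. The CAM library was stimulated with lipopolysaccharide (LPS), a bacterial cell wall component, at 500 ng/ml and with interferon gamma (IFNγ) at 20 ng/ml. No label gives the length of the stimulation or says that the cultures were separate. A further 2 libraries held CAM treated with the peptide mML56, which mimics the soluble form of the surface protein Ninj1; their strain label reads C57BL/7J. They are shown beside a few genes and were not averaged with CAM.

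LPS is sensed by Toll-like receptor 4, which sets off NF-kB, AP-1 and the factor Irf3, and so cytokines, chemokines and interferon beta. IFNγ, which T and NK cells secrete, acts through the kinases Jak1 and Jak2 on factors that bind GAS sites. Related ISRE sites of interferon-stimulated genes are bound by Irf9 with Stat2, or by Irf1. Macrophages given both signals are known for nitric oxide from arginine, prostaglandins, glycolysis, the metabolite itaconate and antigen presentation, and for losing the features of scavenging macrophages.

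Each side had 1 library, so no value here has a spread between replicates, and the description rests on no test. Genes were described by the size of the CPM ratio, by rank and by counts past a 4-fold difference. Where 2 CPM values follow a gene, the first is its level in M-CSF and the second its level in CAM. A count under 3 was set to 3 in a ratio, so ratios of genes at or near 0 depend on this floor and leave out counting error. Intervals are exact 95% intervals of the ratio of 2 counts and cover counting error only. The M-CSF library held 12414713 estimated counts and the CAM library 10334062, with values above 0 for 17548 and 14847 genes. Lars2 and the gene model Gm15662 took 6.40% of counts in M-CSF and 14.1% in CAM. Mitochondrially encoded genes took 6.08% and 1.63%. Some widely expressed genes were at 0 or near it in 1 library, such as Eif1 at 41.1 and 0 CPM and Rplp0 at 0.650 and 17.8 CPM, so a single low value cannot be read as absence. Eif1 and Rplp0 were chosen as examples after their values were seen.

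Of the 13394 measured genes, 1069 (7.98%) were at least 4-fold higher in CAM and 2258 (16.9%) at least 4-fold lower. The median log2 ratio of CAM over M-CSF was -0.55, with quartiles of -1.52 and 0.34, so a typical gene stood below its M-CSF level on this scale. With TMM scaling the median was -0.15 and 45.8% of the 4-fold calls were higher in CAM, against 32.1% with column totals. In whole cultures, fewer cells of a type and less RNA per cell cannot be told apart. The distribution was lopsided at its far end: 279 genes were at least 16-fold higher and 369 at least 16-fold lower, but 102 were at least 64-fold higher and 43 at least 64-fold lower.

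The first genes by count also held a larger share of the CAM library. The 100 genes with most counts took 36.6% of the M-CSF library and 42.2% of the CAM library, and the first 1000 took 65.0% and 72.0%. Among the 100 were Lars2 and Gm15662, whose share of 6.40% and 14.1% differed by more than that of all 100. Of the 100 genes with most counts in CAM, 48 were at least 4-fold higher there than in M-CSF and 3 at least 4-fold lower. Of the 100 with most counts in M-CSF, 0 were at least 4-fold higher in CAM and 32 at least 4-fold lower. Over all measured genes 7.98% were at least 4-fold higher in CAM and 16.9% at least 4-fold lower. Each set of 100 was chosen by counts in a library that also enters the ratio. A lean towards that library is therefore built into both sets, and how much of it the choice made was not tested. By count per transcript length, 50 genes were in the first 100 of both libraries. Among them was Fth1, the ferritin heavy chain, which stores iron, at 8202 and 16419 CPM. Mpeg1, the pore-forming perforin-2 of macrophages, differed little, at 5932 and 6924 CPM.

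**Figure D1:**
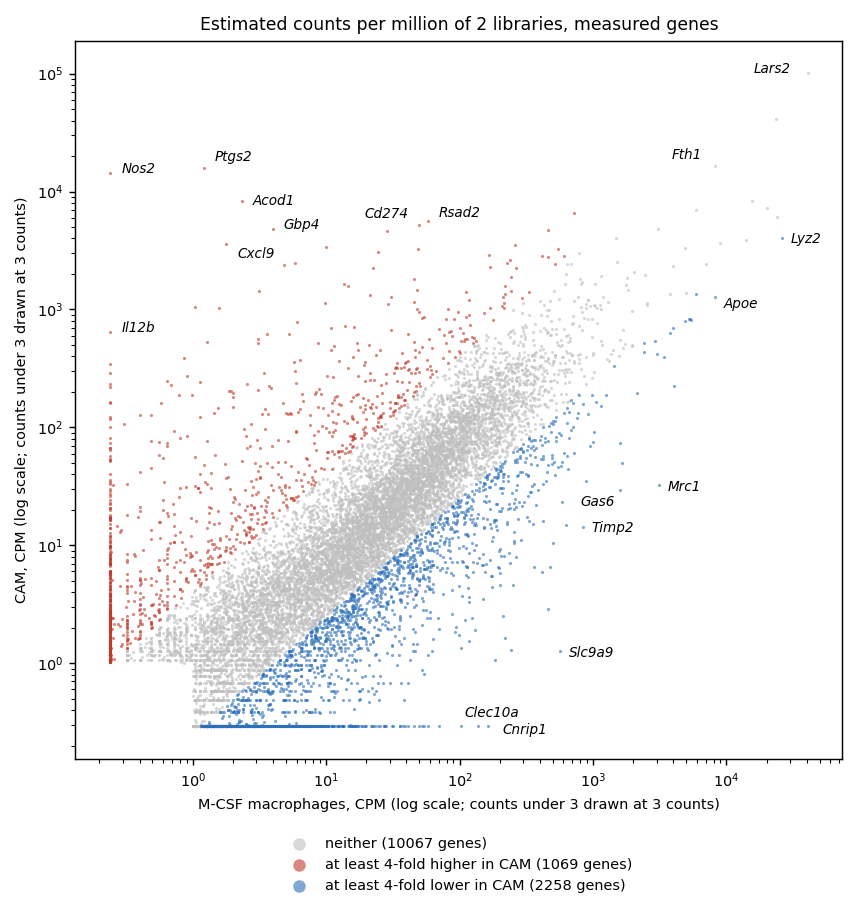
CPM of each measured gene in the M-CSF library (horizontal) and the CAM library (vertical), both on log scales, with 1069 genes at least 4-fold higher in CAM in red and 2258 at least 4-fold lower in blue; each point is 1 gene and there are no replicates. Nos2 lies at 0.242 and 14248 CPM, Ptgs2 at 1.21 and 15877 CPM and Mrc1 at 3126 and 32.2 CPM.

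The marker genes lay on the sides that the labels imply. Nos2, the inducible nitric oxide synthase (ENSMUSG00000020826, mm10 chromosome 11, 78920787 to 78960254), had 3 counts in M-CSF, or 0.242 CPM, and 14248 CPM in CAM. The ratio was 58963, with an interval of 20176 to 285918. By count per transcript length Nos2 ranked 13147 of 13394 measured genes in M-CSF and 9 in CAM. Ptgs2, the cyclooxygenase that inflammation induces (ENSMUSG00000032487, chromosome 1, 150100031 to 150108227), was found at 1.21 and 15877 CPM, a ratio of 13140 (interval 7967 to 23478), and ranked 12757 and 8. Cxcl9, a chemokine for activated T cells (ENSMUSG00000029417, chromosome 5, 92321347 to 92328079), was found at 1.78 and 3625 CPM and ranked 11991 and 37. Mrc1, the mannose receptor of unactivated and alternatively activated macrophages (ENSMUSG00000026712, chromosome 2, 14229392 to 14332057), was found at 3126 and 32.2 CPM, 97.0-fold lower (interval 87.1 to 108). The peptide-treated libraries lay on the activated side for these genes, with Nos2 at 6089 and 5839 CPM and Mrc1 at 8.18 and 4.87 CPM.

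As macrophage markers, Csf1r, the M-CSF receptor, stood at 496 and 58.4 CPM, and Adgre1, a surface marker of mouse macrophages, at 89.1 and 153 CPM. Itgam, which encodes CD11b, stood at 333 and 899 CPM, Spi1, the myeloid lineage factor PU.1, at 305 and 232 CPM, and Cd14, the LPS co-receptor, at 295 and 712 CPM. Cd68 was low in both libraries, at 16.7 and 1.04 CPM. Among defining markers of other cells, Cd3e, Trac, Trbc2, Ncr1, Igkc, Ly6g, S100a9, Hba-a1, Hbb-bs and Emcn were at 0 in both. These were named for that value, while Ighm and Pf4, given below, were well above 0 in M-CSF. A value of 0 in these libraries cannot be read as absence of the cells. The summed level of the 6 measured of 13 neutrophil genes was 237 CPM in M-CSF and 91.5 in CAM. Most of it came from Csf3r at 210 and 62.6 CPM, a receptor that monocytes also carry.

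The sums of the platelet and B cell lists were higher in M-CSF. The 5 measured of 11 platelet and megakaryocyte genes summed to 109 CPM in M-CSF and 6.85 in CAM. Most of the M-CSF sum was Pf4, a platelet chemokine, at 92.3 and 1.84 CPM. Ighm, the IgM heavy chain, stood at 137 and 0.0968 CPM, while Igkc, Ighd and Pax5 were at 0 in both libraries. The 4 measured of 11 B cell genes summed to 394 and 94.7 CPM, so Ighm was the smaller part in both. Whether these sums came from platelets or B cells was not tested. The 4 measured of 15 T and NK genes summed to 24.5 and 10.4 CPM. The 8 measured of 14 fibroblast and endothelial genes summed to 157 and 141 CPM. For basophil and mast cell genes, 2 of 10 were measured and summed to 2.86 and 3.74 CPM. For erythroid genes, 2 of 9 were measured and summed to 4.68 and 2.03 CPM. The 8 measured of 12 dendritic cell genes summed to 88.0 and 336 CPM, of which Bst2, also an interferon-stimulated gene, gave 75 and 275 CPM. The part of other cells in the results was not tested.

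Genes were then read in 59 lists of macrophage and general functions. Of these, 12 had a median log2 ratio of 2 or more and 3 had one of -2 or less. With a pseudocount of 1 CPM 9 had a median of 2 or more. The lists with the highest medians were guanylate-binding proteins, CC chemokines and serpins, an order that depended on the floor and filter: with a pseudocount of 1 CPM the median of serpins was 2.17, below that of immunity-related GTPases at 3.93, and at a minimum of 10 CPM CXC chemokines, at 7.14, lay above CC chemokines, at 4.76. The lists with the lowest were macrophage identity genes, cytosolic ribosomal proteins and mitochondrially encoded genes. Counts past 4-fold in each list below stand beside 7.98% higher and 16.9% lower over all measured genes.

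**Figure D2:**
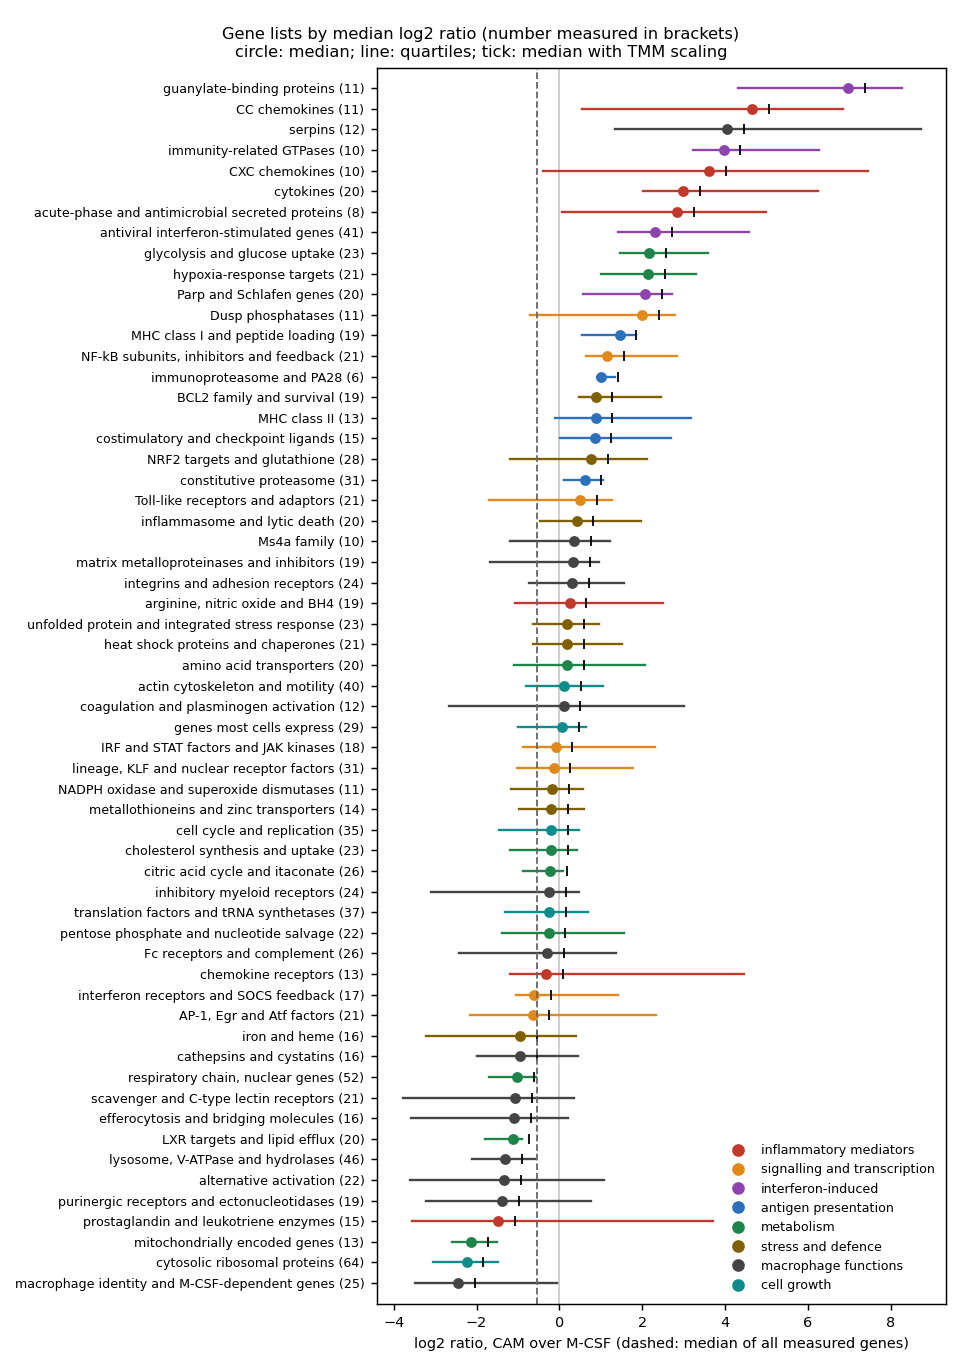
Median log2 ratio of CAM over M-CSF for each of 59 gene lists (circle), with the quartiles of its measured members (line) and the median after TMM scaling (tick); colours mark the class of list and the dashed line the median of all measured genes, -0.55. Guanylate-binding proteins lie highest at 6.96 and macrophage identity genes lowest at -2.46.

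Of 26 cytokine genes, 20 were measured, 15 of them at least 4-fold higher in CAM and 0 lower, with a median log2 ratio of 2.98 against -0.55 for all measured genes. Il12b, whose product p40 is part of IL-12 and of IL-23 (chromosome 11, 44400063 to 44414033), was found at 0 and 643 CPM. With the floor of 3 counts its log2 ratio was 11.38, and the lower limit of its ratio without the floor was 2163. The partner chains of p40 had few counts in either library. Il12a, the p35 subunit that completes IL-12, stood at 0 and 1.16 CPM, and Il23a, which completes IL-23, at 0 and 1.65 CPM. In the peptide-treated libraries Il12b stood at 5.22 and 3.38 CPM.

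The IL-1 family divided by member. Il1a, an alarm cytokine that acts on the IL-1 receptor, was found at 1.05 and 1047 CPM, a ratio of 999.7 (interval 584 to 1878). Il1rn, which encodes the antagonist of the same receptor, lay at 22.3 and 2257 CPM. Il1b, which uses that receptor too, stood at 0 and 16.6 CPM. Il18 was close in both libraries, at 8 and 5.71 CPM, whereas Il18bp, the secreted inhibitor of IL-18, stood at 36.5 and 320 CPM.

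Il6 and Inhba, the latter the chain of activin A, each had 1 count in M-CSF, and 81.9 and 64.3 CPM in CAM. Il27, the p28 subunit of IL-27, stood at 1.21 and 48.2 CPM, while Ebi3, its partner chain, was at 74.5 and 90.6 CPM. Tnf was at 0 in both libraries, and so was Csf2, while Ifnb1, interferon beta, was at 0 in M-CSF and 0.774 CPM in CAM. Osm stood at 12.4 and 8.90 CPM. Il10, the main inhibitory cytokine of macrophages, differed less than 4-fold, at 2.34 and 5.71 CPM.

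Chemokines stood at both ends. Of 11 CC chemokines measured 8 were at least 4-fold higher and 2 at least 4-fold lower (median log2 ratio 4.66), and of 10 CXC chemokines 6 were higher and 2 lower (3.62). Ccl5, which draws T cells and monocytes, stood at 4.83 and 2379 CPM, a ratio of 492 (interval 382 to 645). The monocyte attractants Ccl2 and Ccl7 stood at 6.04 and 790 CPM and at 3.06 and 566 CPM. Ccl3 and Ccl4, which draw monocytes and T cells, were above 10 CPM in M-CSF already, at 62.7 and 471 CPM and at 15.5 and 77.5 CPM. Ccl6 and Ccl9, rodent chemokines of myeloid cells, were lower in CAM, at 217 and 8.13 CPM and at 502 and 112 CPM.

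Among the CXC chemokines, the ligands of Cxcr3 on T cells were all higher in CAM. Beside Cxcl9, Cxcl11 stood at 0.689 and 230 CPM, and Cxcl10 at 0.106 and 53.3 CPM. The neutrophil attractants Cxcl2 and Cxcl1 were found at 2.01 and 182 CPM and at 0.161 and 6.10 CPM. Cxcl16, a membrane-bound chemokine, stood at 255 and 633 CPM.

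Receptors for such signals were divided. Of 13 measured chemokine and chemoattractant receptors 5 were at least 4-fold higher and 3 lower, and the median of -0.31 turned to 0.09 with TMM scaling. The formyl peptide receptors, which sense bacterial peptides, were far higher in CAM, with Fpr1 at 0.644 and 245 CPM and Fpr2 at 1.13 and 242 CPM. Ccr7, which guides cells to lymph nodes, had 1 count in M-CSF and 34.6 CPM in CAM. Cxcr4, a retention receptor, stood at 276 and 16.6 CPM, and C5ar1, the receptor of complement C5a, at 571 and 85.3 CPM. Ccr2 and Cx3cr1, the receptors that separate monocyte subsets, were close, at 3.54 and 2.81 CPM and at 32.1 and 30.6 CPM.

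**Figure D3:**
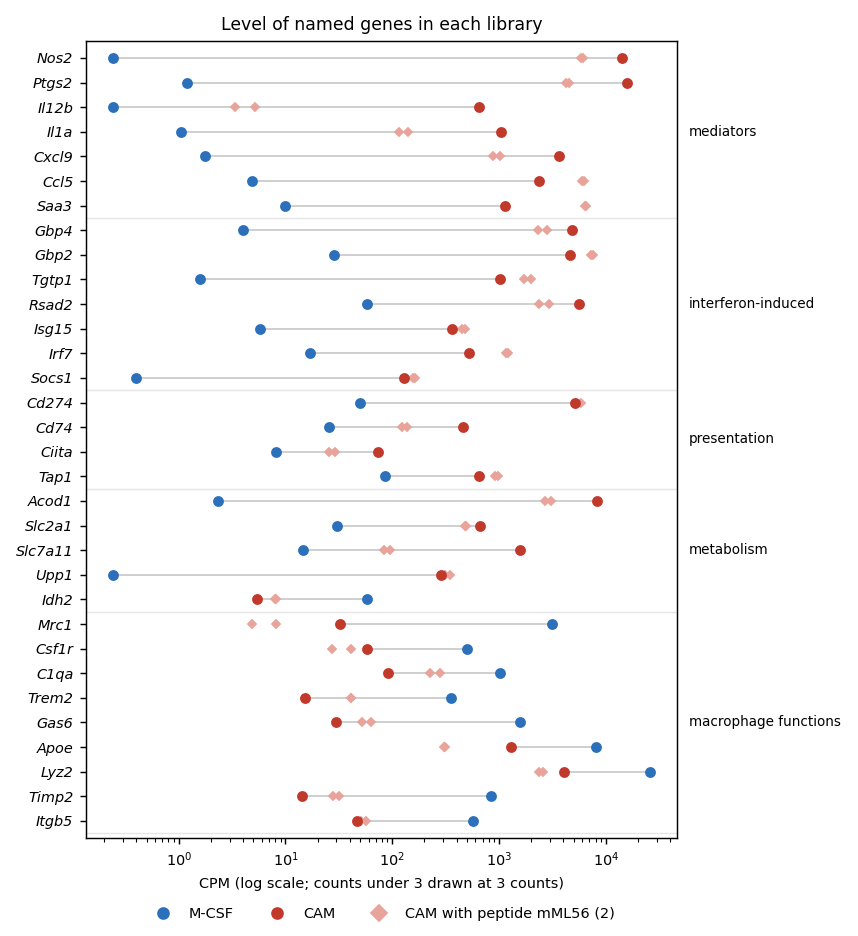
CPM of 32 named genes (log axis) in the M-CSF library (blue circle), the CAM library (red circle) and the 2 peptide-treated libraries (pale diamonds), grouped by role; each marker is 1 library. Mediators, interferon-induced and presentation genes have CAM to the right of M-CSF, and macrophage function genes and Idh2 have it to the left.

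Enzymes of lipid mediators lay on both sides. Of 15 prostaglandin and leukotriene genes measured, 5 were at least 4-fold higher and 6 at least 4-fold lower. Of the higher ones, 4 belong to the route to prostaglandin E2: Ptgs2, Pla2g4a, the phospholipase that frees arachidonic acid, at 0.810 and 30.4 CPM, and the synthases Ptges, at 2.50 and 84.5 CPM, and Ptges3, at 0.736 and 12.2 CPM. Another such synthase, Ptges2, stood at 10 and 8.02 CPM. The other higher gene was Pla2g7, a phospholipase that breaks down platelet-activating factor, at 4.95 and 51.1 CPM. Ptgs1, the constitutive cyclooxygenase, stood at 45.1 and 1.26 CPM. Hpgd, which inactivates prostaglandins, stood at 150 and 3.48 CPM, a ratio of 0.0232. The leukotriene enzymes were lower as well, with Alox5 at 3.10 and 0.247 CPM, Lta4h at 60.3 and 12.5 CPM and Ltc4s at 15.8 and 0 CPM. Hpgds, which makes prostaglandin D2, stood at 526 and 142 CPM, 3.71-fold lower.

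Genes around arginine were also divided. Slc7a2, the transporter that brings arginine into activated macrophages, stood at 9.91 and 3379 CPM, a ratio of 341. Ass1, which rebuilds citrulline towards arginine, stood at 17.2 and 272 CPM, but Asl, the next enzyme, at 48.9 and 19.4 CPM. Arg1, which competes with Nos2 for arginine and is a marker of alternative activation in mice, was also higher, at 0.403 and 41.7 CPM. Gch1, which starts the synthesis of the Nos2 cofactor tetrahydrobiopterin, stood at 10.2 and 36.8 CPM, and the later enzyme Spr at 12.9 and 2.71 CPM and the recycling enzyme Qdpr at 20 and 2.57 CPM. Srm, the spermidine synthase of the polyamine branch, stood at 11.3 and 1.35 CPM.

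Of the secreted acute-phase and antimicrobial proteins, Saa3, a serum amyloid of macrophages, stood at 9.85 and 1139 CPM, and Lyz2, lysozyme, at 25937 and 4072 CPM. Lyz2 ranked 2 per transcript length in M-CSF and 12 in CAM. Of the 12 measured serpins, inhibitors of proteases, 9 were at least 4-fold higher and 1 lower. Serpina3f was found at 0 and 235 CPM and Serpinb9, which blocks granzyme B, at 0.863 and 384 CPM. Serpinb6a was the member at least 4-fold lower, at 129 and 12.4 CPM. Serpina3f and Serpina3g are near-identical copies, so their separate values are uncertain.

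All 11 guanylate-binding proteins, GTPases that attack vacuoles holding pathogens, were at least 4-fold higher in CAM, with a median log2 ratio of 6.96. Their sum was 113 CPM in M-CSF and 16567 in the CAM library, of which it made up 1.66%. Gbp4 stood at 3.97 and 4831 CPM, a ratio of 1218 (interval 926 to 1655). Gbp10, with under 3 counts in M-CSF, stood at 0.181 and 218 CPM, a log2 ratio of 9.82 with the floor. The interval of the Gbp10 ratio without the floor, 374 to 11177, spans that of Gbp4, so the larger of them is not decided. Gbp2 stood at 28.8 and 4639 CPM and Gbp5 at 24.6 and 3072 CPM. Gbp9 and Gbp7 were less far apart, at 21.1 and 292 CPM and at 11.7 and 182 CPM. Several members are near-identical copies lying side by side, so the split between them is uncertain while the sum is less so.

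Of 10 immunity-related GTPases, which disrupt the same vacuoles, 9 were at least 4-fold higher and 0 lower (median log2 ratio 3.97). Tgtp1 stood at 1.57 and 1019 CPM and its neighbour Tgtp2 at 21.5 and 1323 CPM. Irgm1 and Irgm2, the regulators that guard the cell's own membranes, were already present in M-CSF, at 70.7 and 680 CPM and at 82.7 and 644 CPM. Irgq, a distant member of the family, stood at 63.7 and 52.0 CPM.

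The antiviral interferon-stimulated genes were less even. All 41 were measured, 23 at least 4-fold higher and 2 at least 4-fold lower (median 2.32), and their sum was 2918 and 23584 CPM. Rsad2, viperin, stood at 58.1 and 5640 CPM, and Oasl1 at 3.09 and 522 CPM. Isg15, the ubiquitin-like modifier, stood at 5.72 and 361 CPM and Ifit1, which binds foreign RNA ends, at 28.9 and 1120 CPM. Mx1 and Mx2, antiviral GTPases, stood at 49.8 and 948 CPM and at 11.3 and 269 CPM. Others stayed close: Oas2 at 7.04 and 7.26 CPM, Apobec3 at 139 and 140 CPM, and Ifitm3 at 367 and 428 CPM. The 2 lower members were Ifitm1, at 19.5 and 2.71 CPM, and Ifitm2, at 344 and 77.2 CPM, which are membrane proteins that block viral entry. Of 20 Parp and Schlafen genes 11 were higher and 2 lower. Slfn4, of the Schlafen family, had the largest ratio of them, at 0.581 and 162 CPM, and Parp14, an ADP-ribosyltransferase, stood at 460 and 4730 CPM.

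These genes could be read beside the bases at their start sites. RefSeq promoters, taken as 250 bases before to 50 after each annotated start on GRCm38.p6, were found for 9830 of the measured genes. They were searched on both strands for GAAANNGAAA, the core of the ISRE, TTCNNNGAA, the GAS site, and GGGANNNTCC, the core of the kB site of NF-kB. Promoters are printed for 3 genes of the interferon lists and the chemokine Cxcl10, which hold different sets of motifs. For contrast, Irf1 is printed, where only the GAS letters were matched. The printed promoters are Gbp2 (chr3:142620413-142620712, plus strand), Gbp5 (chr3:142496684-142496983, plus strand), Ifit1 (chr19:34640639-34640938, plus strand), Cxcl10 (chr5:92348840-92349139, minus strand) and Irf1 (chr11:53769764-53770063, plus strand). Each runs 5′ to 3′ in the direction of the gene, with motif letters in capitals.
Gbp2: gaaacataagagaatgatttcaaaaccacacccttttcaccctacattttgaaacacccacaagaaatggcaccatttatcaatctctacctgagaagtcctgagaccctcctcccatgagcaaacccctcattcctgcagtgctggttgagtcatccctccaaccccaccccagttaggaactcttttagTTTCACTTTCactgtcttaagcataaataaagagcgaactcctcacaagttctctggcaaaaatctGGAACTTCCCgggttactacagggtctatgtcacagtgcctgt
Gbp5: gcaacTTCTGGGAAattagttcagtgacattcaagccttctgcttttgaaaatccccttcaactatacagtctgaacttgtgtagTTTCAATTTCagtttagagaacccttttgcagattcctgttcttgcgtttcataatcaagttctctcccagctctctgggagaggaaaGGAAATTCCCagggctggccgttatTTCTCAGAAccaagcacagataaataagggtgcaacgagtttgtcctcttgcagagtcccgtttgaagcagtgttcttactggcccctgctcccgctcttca
Ifit1: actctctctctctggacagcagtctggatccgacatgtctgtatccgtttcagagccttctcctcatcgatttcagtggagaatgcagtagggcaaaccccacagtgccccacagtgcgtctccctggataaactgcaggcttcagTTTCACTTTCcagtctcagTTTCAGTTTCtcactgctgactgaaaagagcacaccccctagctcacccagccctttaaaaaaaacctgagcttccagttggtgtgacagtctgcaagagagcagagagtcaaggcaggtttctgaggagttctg
Cxcl10: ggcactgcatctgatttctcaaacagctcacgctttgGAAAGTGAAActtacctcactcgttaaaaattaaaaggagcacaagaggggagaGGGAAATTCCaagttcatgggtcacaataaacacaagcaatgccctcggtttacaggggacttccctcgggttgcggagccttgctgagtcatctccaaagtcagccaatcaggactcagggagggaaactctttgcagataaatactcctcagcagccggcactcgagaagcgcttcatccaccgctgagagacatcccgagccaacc
Irf1: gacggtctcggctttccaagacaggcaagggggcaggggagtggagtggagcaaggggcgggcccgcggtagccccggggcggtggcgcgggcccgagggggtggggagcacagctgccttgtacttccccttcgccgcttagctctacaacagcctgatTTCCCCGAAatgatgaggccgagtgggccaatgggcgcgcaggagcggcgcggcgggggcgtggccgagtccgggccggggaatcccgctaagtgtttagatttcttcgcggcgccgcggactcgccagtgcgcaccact

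Positions are counted from the annotated start and give the first base of a match. Gbp2 held ISRE letters at -59 and a kB motif at 8. Gbp5 held all 3 motifs, with GAS letters at -245 and -52, an ISRE at -165 and a kB motif at -77. Ifit1 held ISRE letters at -104 and -85. Cxcl10 held an ISRE at -213 and a kB motif at -159. The Irf1 promoter held GAS letters at -90 and no match to the letters searched for the other motifs. Only these letters were searched, so a promoter without a match can still hold other forms of a site. A second annotated Irf1 start, at chr11:53770223-53770522, held none of the 3.

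Across all 32851 RefSeq promoters 3.44% held ISRE letters. Among the lists gathered as interferon-induced genes, the share was 83.3% of 6 promoters of guanylate-binding proteins, from 5 of their 11 genes. It was 71.4% of 7 of immunity-related GTPases, 53.7% of 41 of antiviral genes and 31.6% of 19 of Parp and Schlafen genes. Of 16 promoters of cytokines, 0% held ISRE letters. The share with ISRE letters was then read by size of ratio. It was 8.14% for genes at least 4-fold higher in CAM, 12.9% for those at least 16-fold higher and 2.65% for those at least 4-fold lower. GAS letters were in 8.30% of all promoters and in 7.01% of those of measured genes. They were in 8.47% for genes at least 4-fold higher, 11.2% for those at least 16-fold higher, 6.41% for those at least 4-fold lower and 57.1% of 7 promoters of immunity-related GTPases. The kB letters were in 4.59% of all, in 57.1% of 7 CXC chemokine promoters and in 5.39% of those of measured genes. They were in 5.91% for genes at least 4-fold higher, 9.17% for those at least 16-fold higher and 5.71% for those at least 4-fold lower. A match is a description of the bases and not a binding site.

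**Figure D4:**
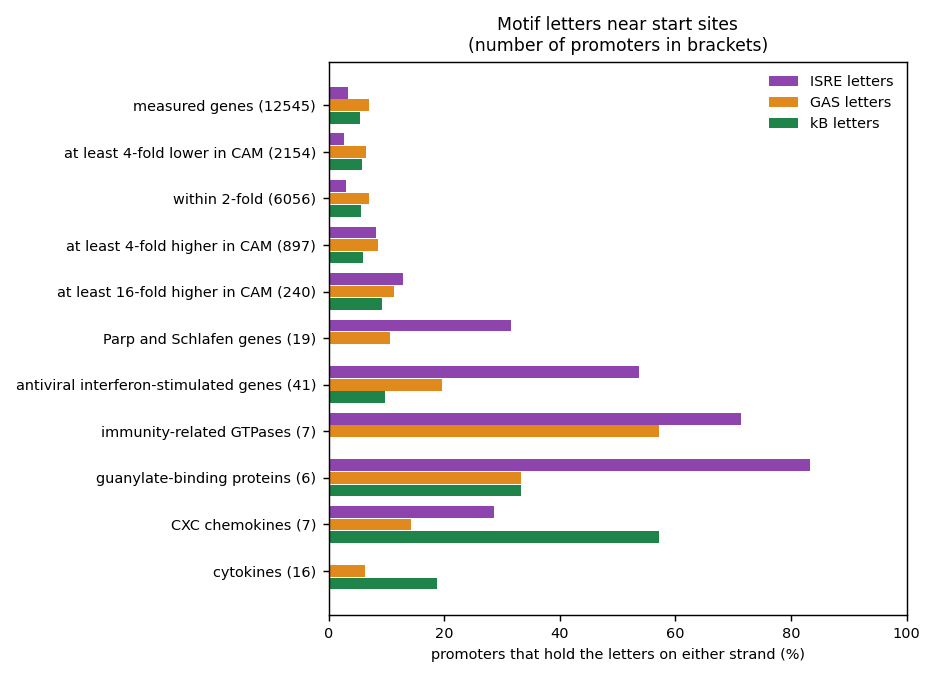
Share of promoters (300 bases around RefSeq start sites) that hold the letters of the ISRE (purple), GAS (orange) or kB (green) motif on either strand, for all measured genes, for genes by size of ratio and for 6 gene lists; numbers of promoters are in brackets. ISRE letters are in 83.3% of guanylate-binding protein promoters and 3.39% of those of measured genes.

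The factors that act on these sites differed among themselves. Of 18 measured IRF, STAT and JAK genes, 5 were at least 4-fold higher and 1 lower; the median of -0.09 turned to 0.31 with TMM scaling. The higher ones included Irf7, at 17 and 518 CPM, Jak2, the kinase of the IFNγ receptor, at 52.4 and 839 CPM, Irf1, at 79.7 and 827 CPM, and Stat2, at 119 and 741 CPM. Irf9, the DNA-binding partner of Stat2, stood at 85 and 87.9 CPM. Irf8, a lineage factor of monocytes, stood at 323 and 409 CPM. Irf4, a factor of alternative activation, stood at 19.5 and 0.774 CPM, and Stat6, which carries the IL-4 signal, at 18.5 and 6.31 CPM.

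Brakes on the same routes were among the genes far higher in CAM. Socs1, which blocks JAK kinases, stood at 0.403 and 128 CPM and Socs3, a brake on Stat3, at 3.62 and 625 CPM. Usp18, which removes Isg15 and damps type I interferon receptors, stood at 1.32 and 20.9 CPM. Of the receptors themselves, Ifngr1 stood at 9.34 and 1.98 CPM, Ifngr2 at 253 and 206 CPM, Ifnar1 at 41.1 and 75.3 CPM and Ifnar2 at 116 and 48.1 CPM. The list of 17 receptors and SOCS genes held 3 (17.6%) higher and 1 (5.88%) lower, against 7.98% and 16.9% of all measured genes.

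Of 21 measured genes of the NF-kB route 8 were at least 4-fold higher and 0 lower (median 1.15). Tnfaip3, the ubiquitin-editing inhibitor A20, stood at 12.5 and 366 CPM, Nfkbia, which encodes IκBα, at 49.7 and 433 CPM, Nfkbie at 22 and 157 CPM and Tnip3 at 25.7 and 228 CPM. Other inhibitors differed less, with Nfkbid at 17.2 and 27.6 CPM and Cyld at 89.6 and 199 CPM. The subunits Rela and Relb stood at 132 and 153 CPM and at 43.3 and 44.1 CPM, Nfkb2 at 21.6 and 25.3 CPM, Rel at 128 and 221 CPM and Nfkb1 at 131 and 385 CPM. All 21 lay above the median ratio of all measured genes.

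Among the sensors of LPS and nucleic acids, Tlr4, the LPS receptor, stood at 1.57 and 2.55 CPM. Tlr3, which senses double-stranded RNA, stood at 15.9 and 69.2 CPM, while Tlr7 and Tlr8, sensors of single-stranded RNA, stood at 284 and 41.8 CPM and at 663 and 166 CPM. Irak3, which damps the pathway, stood at 12.2 and 61.3 CPM, and the kinase Irak1 at 109 and 27 CPM. Of 21 such genes 2 (9.52%) were at least 4-fold higher and 4 (19.0%) lower, near the 7.98% and 16.9% of all measured genes.

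AP-1 and Egr factors were divided. Of 21 genes 7 were at least 4-fold higher and 6 lower. Batf2, an IFNγ-induced partner of Irf1, stood at 6.69 and 166 CPM, Fosl1 at 0.483 and 11.2 CPM and Junb at 61.4 and 307 CPM. Jun and Fos, early genes, were close, at 98.4 and 114 CPM and at 50.2 and 31.4 CPM. Maf, a factor of mature macrophages, stood at 1306 and 362 CPM, and Myc at 8.22 and 1.06 CPM. Of 11 measured Dusp genes, phosphatases of MAP kinases, 6 were higher and 1 lower, with Dusp1 at 15.5 and 167 CPM and Dusp7 at 199 and 19.7 CPM.

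Among lineage factors and nuclear receptors, 8 of 31 were at least 4-fold higher and 7 lower. Hif1a, the factor of low oxygen, which LPS also raises in macrophages, stood at 220 and 1362 CPM, and Klf6 at 332 and 1411 CPM. Cebpb, a factor of inflammatory genes, stood at 13.8 and 60.2 CPM, while the related Cebpa and Cebpd stood at 22.8 and 0.544 CPM and at 31.2 and 2.82 CPM. Pparg, the lipid sensor of alternative activation, stood at 35.4 and 1.16 CPM, its partner Rxra at 12.3 and 0 CPM, and Nr4a1 at 20.5 and 0.581 CPM. Tfeb, a factor of lysosome genes, stood at 64.3 and 8.94 CPM.

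For antigen presentation, MHC class II was higher at its regulator and its main chains. Of 13 measured genes 6 were at least 4-fold higher and 0 lower. Ciita, the transactivator of class II genes, stood at 8.15 and 73.1 CPM. Cd74, the invariant chain, stood at 25.4 and 456 CPM, H2-Ab1 at 19.6 and 355 CPM and H2-Eb1 at 9.42 and 146 CPM. H2-Aa was close to 0 in both, at 0.0999 and 0.361 CPM, although its product pairs with that of H2-Ab1. The loading chaperone H2-DMa stood at 17.4 and 31.8 CPM, and the protease Ctss, which trims the invariant chain, was close in both, at 1763 and 1627 CPM.

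Class I genes differed by less. Of 19 measured, 4 were at least 4-fold higher and 0 lower, with a median of 1.45. Tap1, the peptide transporter, stood at 85.8 and 654 CPM, Nlrc5, the class I transactivator, at 7.24 and 54 CPM, Tapbpl at 30.3 and 146 CPM, and H2-Q6 at 9.09 and 194 CPM. B2m, the shared light chain, stood at 3045 and 4768 CPM. H2-D1 stood at 3945 and 2348 CPM and H2-K1 at 658 and 244 CPM; class I genes are so alike that reads may be split wrongly between them. The immunoproteasome subunits Psmb8, Psmb9 and Psmb10 stood at 70.1 and 145, 29.8 and 81.3, and 47.2 and 83.9 CPM. The 31 subunits of the constitutive proteasome had a median of 0.61, with 1 at least 4-fold higher, 0 lower and all 31 above the median ratio of all measured genes.

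Cd274, which encodes PD-L1 (chromosome 19, 29367455 to 29388095), stood at 49.7 and 5164 CPM, a ratio of 103.8. Cd40, through which T cells activate macrophages, stood at 1.88 and 202 CPM, and Cd200, a ligand that calms myeloid cells, at 0.485 and 127 CPM. The costimulatory ligands Cd80 and Cd86 were close, at 26.6 and 29.9 CPM and at 6.52 and 17.4 CPM. Vsir, the checkpoint protein VISTA, was lower in CAM, at 189 and 14.5 CPM. Of 15 such genes measured 5 were higher and 1 lower.

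Of 23 measured genes of glycolysis and glucose uptake 12 were at least 4-fold higher and 0 lower (median 2.17), and 20 lay above the median of all genes. Slc2a1, the glucose transporter GLUT1, stood at 30.5 and 668 CPM. Pfkfb3, which drives phosphofructokinase, stood at 112 and 1406 CPM, and its relative Pfkfb4 at 64.5 and 17.1 CPM. Gapdh stood at 788 and 3002 CPM and Pkm at 118 and 896 CPM. Slc16a3, the lactate exporter, stood at 12.5 and 159 CPM. Hypoxia-response targets were counted separately, with 11 of 21 higher and 0 lower, among them Ero1l at 48.3 and 1455 CPM, Hilpda at 3.30 and 130 CPM and Adm, adrenomedullin, at 0.604 and 55.4 CPM. Vegfa was close, at 120 and 174 CPM.

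Of 26 measured genes of the citric acid cycle and itaconate, 2 (7.69%) were at least 4-fold higher and 5 (19.2%) lower. These shares were near the 7.98% and 16.9% of all measured genes. Acod1, which makes itaconate from a cycle intermediate (ENSMUSG00000022126, chromosome 14, 103046977 to 103056573), was found at 2.34 and 8303 CPM, a ratio of 3554 (interval 2475 to 5308), and ranked 11489 and 15 per transcript length. The lower genes included Idh2, the mitochondrial isocitrate dehydrogenase, at 58.4 and 5.42 CPM. Idh1 stood at 3.01 and 3.22 CPM, Cs, citrate synthase, at 137 and 164 CPM, Ogdh at 26.1 and 52.2 CPM, and Sdha, of succinate dehydrogenase, at 236 and 117 CPM. The median of the list, -0.22, turned to 0.18 with TMM scaling.

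All 13 mitochondrially encoded genes had lower CPM in CAM, 7 of them at least 4-fold, and their sum was 60761 and 16253 CPM. The ratio varied between them, with mt-Co1 at 20016 and 7219 CPM, mt-Cytb at 5216 and 822 CPM and mt-Nd3 at 326 and 26.2 CPM. In the peptide-treated libraries the sum was 13233 and 10091 CPM. Of 52 nuclear respiratory chain genes 0 were at least 4-fold higher and 9 (17.3%) were lower, a share near the 16.9% of all measured genes. Their median was -1.03, and -0.62 with TMM scaling. Cycs, cytochrome c, stood at 12.5 and 38.1 CPM, and Atp5h at 88.4 and 21.4 CPM.

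Genes of nucleotide and amino acid supply were divided. Upp1, uridine phosphorylase, was found at 0 and 286 CPM, a log2 ratio of 10.21 with the floor. The lower limit of its ratio without the floor was 963. Nampt, the rate-limiting enzyme of NAD salvage, stood at 169 and 2292 CPM, and Pnp, purine nucleoside phosphorylase, at 46.7 and 451 CPM. Samhd1, which breaks down deoxynucleotides, stood at 636 and 2421 CPM. Ada, adenosine deaminase, stood at 5.24 and 0.290 CPM. Of the amino acid transporters, Slc7a11, which imports cystine, stood at 14.7 and 1583 CPM and Slc6a19 at 0 and 67.1 CPM, while Slc1a5, a glutamine transporter, stood at 22.3 and 3 CPM.

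Of 20 measured LXR targets and efflux genes 2 were higher and 5 lower (median -1.13). Apoe, the apolipoprotein that carries cholesterol away from macrophages, stood at 8150 and 1281 CPM, a ratio of 0.157, and Abca1, the exporter that loads it, at 2391 and 521 CPM. Pltp, a phospholipid transfer protein, stood at 131 and 1.92 CPM. Nr1h3, LXRα itself, was higher, at 14.7 and 61.5 CPM. Of 23 measured genes of cholesterol synthesis and uptake 3 were higher and 4 lower, and their median of -0.21 turned to 0.20 with TMM scaling. Ch25h, which makes the antiviral 25-hydroxycholesterol, stood at 0.725 and 92.9 CPM. Cyp27a1, which makes 27-hydroxycholesterol, was among the 10 smallest ratios, at 184 and 1.06 CPM.

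Defence against oxidants was divided by enzyme. Of 28 measured NRF2 target and glutathione genes 8 were at least 4-fold higher and 2 lower. Prdx1, a peroxiredoxin, stood at 724 and 6524 CPM, a ratio of 9.01, Hmox1, heme oxygenase, at 411 and 2822 CPM, and Gsr, glutathione reductase, at 28 and 284 CPM. Glutathione peroxidases stood lower, with Gpx1 at 261 and 85.7 CPM and Gpx4 at 191 and 73.6 CPM. Nfe2l2, which encodes NRF2, stood at 615 and 274 CPM. Sod2, the mitochondrial superoxide dismutase, stood at 48.3 and 1005 CPM and the cytosolic Sod1 at 106 and 53.5 CPM. Cybb, the catalytic subunit of the phagocyte oxidase, stood at 1490 and 4069 CPM, and its partner Cyba at 400 and 156 CPM.

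Of 16 measured iron and heme genes, 1 was at least 4-fold higher, Hmox1, and 7 were lower, while 8 lay above the median ratio of all measured genes. Slc40a1, ferroportin, which exports iron, stood at 126 and 7.25 CPM, and Cd163, the hemoglobin scavenger receptor, at 88.3 and 2.62 CPM. Ftl1, the ferritin light chain, stood at 264 and 29.6 CPM against the higher Fth1; ferritin genes have many processed copies, so both values are uncertain. Ncoa4, the receptor that sends ferritin to the lysosome, stood at 777 and 133 CPM.

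Hspa1a and Hspa1b, inducible heat shock proteins and near-identical copies, stood at 0.994 and 190 CPM and at 1.55 and 146 CPM, while Hspa8, the constitutive one, stood at 923 and 129 CPM. Of 23 unfolded protein response genes 2 (8.70%) were higher and 1 (4.35%) lower, against 7.98% and 16.9% of all measured genes. Hspa5, the endoplasmic reticulum chaperone BiP, stood at 830 and 945 CPM. Of 20 inflammasome and lytic death genes 5 were higher and 2 lower: Mlkl, the pore former of necroptosis, stood at 7.54 and 128 CPM, Casp1 at 57.2 and 311 CPM, and Pycard, the adaptor ASC, at 67.3 and 9.17 CPM. Ninj1, a cell-surface protein that ruptures the plasma membrane and the source of the study's peptide, stood at 50.4 and 39.9 CPM. Its log2 ratio of -0.34 turned to 0.07 with TMM scaling. Among survival genes Cflar, an inhibitor of caspase 8, stood at 244 and 1903 CPM.

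Genes that mark the M-CSF macrophage had the lowest median of the 59 lists. Of 25 measured, 0 were at least 4-fold higher and 13 were at least 4-fold lower, against 16.9% of all measured genes, and the median was -2.46. Besides Csf1r, these included the complement genes C1qa, C1qb and C1qc, at 1023 and 91.4, 3756 and 626, and 2394 and 437 CPM. Trem2, a lipid receptor of tissue macrophages, stood at 354 and 15.2 CPM, Folr2 at 95.3 and 7.26 CPM, and Gpr34, a lysophosphatidylserine receptor, at 52.2 and 0.194 CPM. Mertk, Csf2rb and Cx3cr1 were close in both, with Mertk at 629 and 600 CPM and Csf2rb at 547 and 502 CPM. Fcgr1, the high-affinity IgG receptor that IFNγ induces, was the highest of the list by ratio, at 98.4 and 371 CPM. The list held members on both sides of 0, and its median stayed below -2 with TMM scaling, at -2.05.

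Receptors for uptake lay on both sides. Marco, a scavenger receptor for bacteria, stood at 1.29 and 527 CPM, Clec4e, which senses mycobacterial glycolipid, at 10.8 and 454 CPM, and Msr1 at 114 and 560 CPM. Against these, Mrc1, Cd163, Stab1, at 956 and 69.6 CPM, Cd93, at 1586 and 73.3 CPM, and Clec10a, a lectin of alternatively activated macrophages, at 103 and 0 CPM, were lower. Of 21 such receptors 4 were higher and 6 lower. Of 16 measured genes for the uptake of dying cells 1 was higher and 7 lower: Gas6, the ligand of Mertk, stood at 1585 and 29.4 CPM, a ratio of 0.0186, Itgb5 at 576 and 46.7 CPM and Pros1, protein S, at 85.4 and 7.74 CPM. The exception was Thbs1, thrombospondin 1, at 608 and 2856 CPM.

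Genes of alternative activation lay on both sides. Of 22 measured 5 were higher and 9 lower. Arg1, Ccl22, Tgm2, Klf4 and Msr1 were the 5 that were at least 4-fold higher, with Tgm2, transglutaminase 2, at 239 and 2638 CPM. Mrc1, Clec10a, Cd163, Pparg and Cd200r1, the last at 38.8 and 0 CPM, were among those lower. Chil3 and Retnla, mouse genes induced by IL-4, were at 0 in both libraries.

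Fc receptor and complement genes lay on both sides. Cfb, factor B of the alternative pathway, stood at 5.24 and 620 CPM, and Fcgr4, the mouse receptor for IgG2 immune complexes, at 47.6 and 322 CPM. Cfp, properdin, which stabilises the enzyme of that pathway, stood at 988 and 188 CPM. Fcgr2b, the inhibitory IgG receptor, stood at 95.6 and 17.6 CPM. Fcgrt, the receptor that recycles IgG, was among the 10 smallest ratios, at 415 and 5.90 CPM. Trem1, which amplifies inflammation, stood at 0.404 and 19.5 CPM, and Cd300lb, Cd300a and Cd300c2, paired receptors of myeloid cells, stood at 422 and 16.2, 542 and 46.2, and 226 and 15.1 CPM.

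Of 46 measured lysosome genes 0 were at least 4-fold higher and 15 (32.6%) were lower, against 7.98% and 16.9% of all measured genes. Their median was -1.31, and their sum was 38518 and 16558 CPM. Hexa, a hexosaminidase, stood at 2153 and 197 CPM, Laptm5 at 5380 and 817 CPM, Lamp1 at 3752 and 1360 CPM and Psap, prosaposin, at 15404 and 8391 CPM. The proton pump subunits ranged from Atp6v0d2, at 151 and 6.74 CPM, to Atp6v1h, at 15.5 and 24.1 CPM. Of 16 measured cathepsins and cystatins 2 were higher and 4 lower, and 8 lay above the median of all genes. Ctsb, Ctsd and Ctsl stood at 23909 and 6110, 13940 and 3873, and 1060 and 164 CPM. Ctsc, which activates serine proteases, stood at 168 and 1034 CPM, and Cst7, an inhibitor of it, at 0.644 and 73.8 CPM. In the peptide-treated libraries the lysosome sum was 28418 and 27469 CPM, between the values of CAM and M-CSF.

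Mmp13, a collagenase, stood at 8.70 and 514 CPM and Mmp14, a membrane-bound metalloproteinase, at 15.9 and 396 CPM, while Timp2, the inhibitor that also binds Mmp14, stood at 834 and 14.4 CPM. Itgal, the LFA-1 chain that binds Icam1, stood at 45.3 and 1166 CPM and Itga5, of the fibronectin receptor, at 111 and 863 CPM. Itga6 and Itgb3 stood at 453 and 42.0 CPM and at 59.4 and 4.94 CPM. Procr, the protein C receptor, stood at 0.304 and 108 CPM, whereas Thbd, thrombomodulin, its partner in that pathway, stood at 30.9 and 1.16 CPM, and F13a1, the clot-stabilising factor XIII, at 17.2 and 0 CPM.

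Of 19 measured genes in the list of purinergic receptors and ectonucleotidases, 3 (15.8%) were at least 4-fold higher and 7 (36.8%) lower. The shares over all measured genes were 7.98% and 16.9%. Adora2a, an adenosine receptor that restrains macrophages, was at 0 and 19.9 CPM, and Adora2b at 1.93 and 13.6 CPM. The nucleotide receptors P2ry6, P2rx7 and P2ry12 stood at 494 and 49.2, 299 and 62.9, and 28.3 and 0 CPM. Gpr84, a receptor for fatty acids of medium length, stood at 3.22 and 38.2 CPM.

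Of 64 measured cytosolic ribosomal protein genes 3 were at least 4-fold higher and 39 lower (median -2.24), and their sum was 11946 and 2708 CPM. Rps27 stood at 174 and 5.44 CPM and Rps24 at 419 and 253 CPM. Rplp0, Rpl11 and Rpl7 were the 3 that were higher, at 0.650 and 17.8, 5.42 and 47, and 4.43 and 19.8 CPM. Ribosomal protein genes have many processed copies that can share their reads. All measured processed pseudogene models together held 2994 and 3764 CPM. Ribosomal protein transcripts are short, and over all measured genes the fifth with the shortest transcripts had a median of -0.61 and the fifth with the longest one of -0.38. The summed level was also low in the peptide-treated libraries, at 3844 and 3671 CPM. Of 37 translation factors and tRNA synthetases 0 were at least 4-fold higher and 6 (16.2%) lower, near the 16.9% of all measured genes, and their median of -0.25 turned to 0.15 with TMM scaling. Eef2, an elongation factor, stood at 1671 and 673 CPM.

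Of 35 measured cell cycle genes 2 (5.71%) were at least 4-fold higher and 5 (14.3%) lower, near the 7.98% and 16.9% of all measured genes. Mki67, a marker of dividing cells, stood at 107 and 125 CPM and Top2a at 31.5 and 46.8 CPM, while Ccne1, cyclin E1, stood at 0.886 and 31.3 CPM and Cdkn1a, the inhibitor p21, at 293 and 930 CPM. Actin and motility genes had a median of 0.11, with 4 of 40 higher and 0 lower. Vim, vimentin, stood at 459 and 2804 CPM. Actb stood at 92.2 and 39.7 CPM, a level that its many processed copies make uncertain.

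Outside the lists, Slc9a9, an endosomal sodium and proton exchanger (chromosome 9, 94669909 to 95230445), had the smallest ratio among named genes with at least 4 counts in CAM, at 566 and 1.26 CPM, 450-fold lower (interval 263 to 845). Abca9, a lipid transporter that macrophages express, stood at 460 and 2.90 CPM, Sesn1, a stress-induced regulator of mTORC1, at 475 and 6.48 CPM, and Cd5l, a secreted protein of tissue macrophages, at 102 and 1.35 CPM. Cnrip1 stood at 162 CPM in M-CSF and had 1 count in CAM. At the other end, Clic5 stood at 3.13 and 1431 CPM, a ratio of 458 (interval 333 to 641), and Ly75, an endocytic receptor, had 1 count in M-CSF and 159 CPM in CAM. The peptide-treated libraries lay on the CAM side for these as well, with Slc9a9 at 5.53 and 3.38 CPM and Clic5 at 1799 and 1895 CPM.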

How the data were processed

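The members, lists and tests were chosen with earlier results of these data known. The deposited table was used, with unscaled estimated counts of every library (the authors' own values); 67.2% of M-CSF values and 74.5% of CAM values are whole. The submitters' processing notes name kallisto, StringTie and mm10, with no role or annotation release, and no label gives a strand setting. Libraries were made with a directional mRNA kit, per the labels' protocols. The number in each column name, 2 for M-CSF and 1 for CAM, is not explained by the labels.

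CPM was computed from column totals with pandas 2.3.3, and ratios with a floor of 3 counts. Rows with the same symbol were summed, 217 genes with no symbol (0.110% and 0.0510% of M-CSF and CAM counts) stayed in totals only, and 26 rows whose symbols had become dates kept their Ensembl identifiers. Ratios were taken among genes at 1 CPM in either library. Genes named were the 10 largest and 10 smallest ratios at 10 CPM or more, the 10 highest with under 4 counts on the other side, the 10 with most counts per library, the 3 highest and lowest of each list, other members where an account needed them, the 4 markers and Ninj1, without gene models. Alternatives used edgeR 4.0.16 and DESeq2 1.42.0 on all 4 libraries, checked on simulated data, with fractional counts rounded.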

Additional observations from a re-analysis of the deposited data

How the results depend on the processing

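Counts of genes higher and lower in CAM were 581 and 1167 at a minimum of 10 CPM, 651 and 1331 with a pseudocount of 1 CPM, 1996 and 4969 at a 2-fold threshold, and 536 and 940 at an 8-fold one, against 1069 and 2258. They were 1332 and 1577 with TMM scaling and 1372 and 1520 with DESeq2 size factors. The lists with a median at least 4-fold lower were 1 with TMM scaling, macrophage identity genes, against 3. With TMM scaling the median of 14 of all 67 lists, 2 of them of other cell types, changed from below to above 0, and the median of all genes moved from -0.55 to -0.15. Leaving out mitochondrial genes, Lars2 and Gm15662 from the totals gave 1109 and 2180.

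On all 4 libraries in 3 groups, edgeR's quasi-likelihood test with Benjamini-Hochberg adjustment called 3018 genes higher and 3270 lower of 14016 at 0.05, and DESeq2's Wald test 1922 and 1532 of 13152. Both take their spread from the 2 peptide-treated libraries and assume that the lone libraries vary like them. Of the genes at least 4-fold higher or lower by size, 981 of 1041 and 1961 of 2258 tested passed edgeR's test, and 741 of 959 and 1115 of 2039 DESeq2's. No replicate could be left out with 1 library a side. No paired analysis was possible because each side had 1 library. Depth limits the 335 measured genes on no more than 3 counts in M-CSF and the 836 in CAM, and ratios of those under 3 counts depend on the floor.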
